A study of Mus musculus with 36 samples.

Results

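Genes of mitosis and the G2/M transition were followed in sorted bone marrow cells of mice labelled Irf8 cKO and WT, before and after osteoclast culture. The set holds 38 genes of 38942 in the expression table. They were chosen by name from textbook roles in entry into and passage through mitosis, with earlier results of these data known. All 38 matched a protein-coding gene of the same symbol in GENCODE M21 and passed the filter on low values. They lie on 14 chromosomes. Libraries came from mice labelled Irf8 cKO and from WT mice. Irf8 is a transcription factor of the monocyte lineage that restrains osteoclast formation, and cKO denotes a conditional knockout whose Cre driver is not given in the sources used here. Cells were sorted by flow cytometry on Ly6C, a surface protein that is high on classical monocytes, into Ly6Chi, Ly6Cint and Ly6Cneg subsets. OC libraries came from cells kept to day 4 with 20 ng/ml MCSF, the growth and survival factor of the macrophage lineage, and 40 ng/ml RANKL, the cytokine that drives osteoclast differentiation. BMM libraries are the day 0 macrophage precursors in MCSF without RANKL. No library was kept to day 4 without RANKL, so RANKL cannot be told apart from time in culture. Below, after RANKL means at day 4 of that culture. The labels give 36 samples in 12 groups, of which 34 had a column. Thus 10 groups had 3 libraries, while the WT Ly6Cneg group had 2 at each stage. Whether the libraries of a group stem from different animals or cultures is not labelled, and the p-values reflect their spread alone, which may be technical.

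Cells make these proteins late in each cycle. Cdk1 bound to cyclins A and B drives entry into mitosis, the Polo and Aurora kinases build the spindle, the checkpoint holds anaphase until every chromosome is attached, and the anaphase promoting complex with Cdc20 then destroys cyclin B and securin. Their mRNAs follow a shared programme: the DREAM complex keeps the promoters silent in resting cells, and B-Myb, MuvB and Foxm1 activate them in G2, through CHR elements and CCAAT boxes close to the start site. In the monocyte lineage, progenitors divide, monocytes divide little, MCSF can bring macrophage precursors into cycle, and osteoclasts arise by fusion of cells that have left it.

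The deposited values are log2-like and flatten at low levels, so levels are given here as normalised reads, the whole reads recovered from the values divided by the relative depth of the library. Differences and standard errors are in deposited units, in which a doubling amounts to 0.63 from 100 normalised reads and 0.88 from 1000. Libraries held 19.9 to 53.4 M recovered reads, which differ 2.47-fold in relative depth between the shallowest and the deepest, and the members were counted with 33 to 29159 reads in a library. The 9 monocyte markers summed to 74300 to 245000 normalised reads over all groups, and none of them was at 0 in a group. The 10 osteoclast markers summed to 118000 to 1440000 in OC libraries, against 13400 to 65600 in BMM libraries, and the lowest OC values were those of WT Ly6Cneg cells. Reads over the Irf8 gene did not fall with the label: they ranged from 14680 to 21280 in cKO BMM libraries, against 6861 to 12450 in WT BMM libraries, and from 3319 to 11890 in cKO OC libraries, against 926.9 to 3920 in WT OC libraries. The deleted part of Irf8 is not given in the sources used here, so a gene total checks nothing, and genotypes below are those of the labels. Male and female mice contributed, per the series' design text, and the libraries divided by genotype: Ddx3y, on the Y chromosome, had 1275 to 1780 normalised reads in all cKO libraries, against 0.7756 to 13.32 in all WT libraries, and Xist had 4358 to 14560 against 13030 to 36340. Genotype and the mix of sexes cannot be told apart in any cKO against WT comparison.

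Promoters are shown for 6 members from different roles, picked because the stretch just before the gene holds at least 1 CCAAT box; those of Cdk1, Cdc20, Top2a and Kif11 also hold a CHR element there, and those of Ccnb2 and Aurka do not. Each sequence is the stretch just before the annotated gene, 5′ to 3′ in the direction of transcription, from RefSeq (build GRCm38.p6), and capitals mark CHR elements (TTTGAA or TTCGAA, on either strand) and CCAAT boxes (CCAAT, on either strand).
Cdk1 (chr10:69352939-69353032, minus strand): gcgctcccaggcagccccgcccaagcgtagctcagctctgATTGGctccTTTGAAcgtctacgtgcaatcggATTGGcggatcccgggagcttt
Ccnb2 (chr9:70421555-70421674, minus strand): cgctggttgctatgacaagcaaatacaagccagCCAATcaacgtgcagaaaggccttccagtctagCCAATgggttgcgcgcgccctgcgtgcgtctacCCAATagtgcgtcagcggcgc
Aurka (chr2:172370571-172370690, minus strand): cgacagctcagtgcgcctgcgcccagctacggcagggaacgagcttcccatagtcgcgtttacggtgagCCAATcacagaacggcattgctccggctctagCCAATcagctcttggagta
Cdc20 (chr4:118437353-118437463, minus strand): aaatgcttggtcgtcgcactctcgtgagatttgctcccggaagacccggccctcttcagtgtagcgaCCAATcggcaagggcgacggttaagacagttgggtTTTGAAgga
Top2a (chr11:99024190-99024309, minus strand): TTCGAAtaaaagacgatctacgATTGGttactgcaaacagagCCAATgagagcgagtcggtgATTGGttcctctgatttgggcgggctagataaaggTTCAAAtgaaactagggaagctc
Kif11 (chr19:37376262-37376381, plus strand): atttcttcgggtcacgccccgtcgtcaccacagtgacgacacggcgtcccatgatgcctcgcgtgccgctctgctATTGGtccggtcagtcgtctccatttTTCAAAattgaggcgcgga

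RefSeq promoters were listed for 30 of the 38 members, all but Tpx2, Smc4, Kif20a, Ccna2, Stmn1, Incenp, Aurkb and Foxm1. Within 250 bases before the start, a CCAAT box occurred in 25 of the 30 (83.3%), against 37.5% of all 27025 genes with an entry. A CHR element occurred in 13 of the 30 (43.3%), against 19.6% of all genes. All 13 also held a CCAAT box, a pairing found in 7.0% of all genes. Birc5, Anln, Nusap1, Mad2l1 and Pttg1 held neither. For comparison, the 20 DNA replication genes with an entry held a CHR element in 3 cases (15%) and a CCAAT box in 14 (70%). E2F sites (TTTGGCGC, TTTCCCGC, TTTCGCGC or TTTGCCGC, on either strand) occurred in 2 of the 30 members (6.7%) and in 6 of the 20 replication genes (30%), against 2.2% of all genes. These letters describe the windows and do not show that a factor binds there.

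Across the 12 groups the genes moved as a block between a low and a high level. The median member had 3390 to 4515 normalised reads in cKO Ly6Chi BMM libraries, 3186 to 3432 in cKO Ly6Cint BMM libraries and 3230 to 3760 in cKO Ly6Cneg BMM libraries. In WT BMM libraries the median stepped with the subset, at 295.9 to 350.9 in Ly6Chi cells, 937.0 to 1036 in Ly6Cint cells and 3093 to 3281 in Ly6Cneg cells. The order by subset turned round in the other genotype after RANKL: cKO OC libraries had medians of 1660 to 1943 in Ly6Chi cells, 928.9 to 1008 in Ly6Cint cells and 242.1 to 271.4 in Ly6Cneg cells. WT OC libraries had 2251 to 2326 in Ly6Chi cells, 2274 to 2432 in Ly6Cint cells and 3730 to 3872 in Ly6Cneg cells. Thus the lowest levels of the series were in WT Ly6Chi cells at day 0 and in cKO Ly6Cneg cells at day 4, as the plot of medians by library shows. In these bulk samples, fewer cells of a dividing type and less RNA per cell cannot be told apart.

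**Figure D1:**
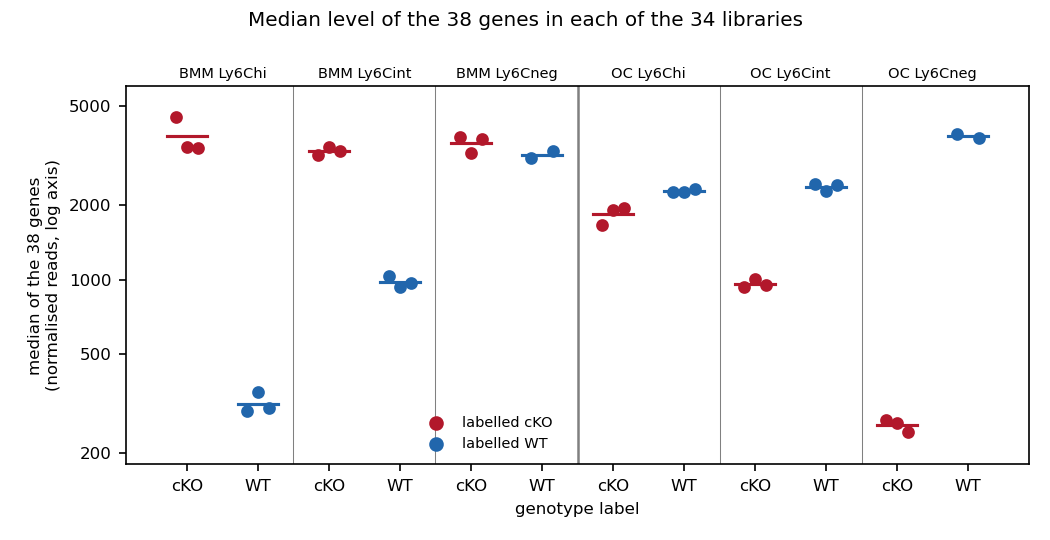
Median of the 38 genes in each library, in normalised reads on a log axis, with cKO left of WT within each stage and Ly6C subset. Points are libraries and bars are group means. The WT Ly6Chi BMM libraries (295.9 to 350.9) and the cKO Ly6Cneg OC libraries (242.1 to 271.4) lie below all others.

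The highest group varied among the members, while the lowest was shared by most. The highest group mean was in cKO Ly6Chi BMM cells for 17 members, in WT Ly6Cneg OC cells for 10 and in WT Ly6Cneg BMM cells for 6. Cyclins, Cdk1, Cdc20, Ube2c, Birc5 and Stmn1 were among those that peaked in cKO BMM cells, whereas Bub1, Bub1b, Cenpe, Cenpf, Prc1, Kif20a and Anln peaked in WT Ly6Cneg OC cells. Those named for cKO BMM cells have coding sequences of 420 to 1497 bases. Those named for WT Ly6Cneg OC cells have 2661 to 8991 bases, apart from Prc1 with 1860. The part of length in this split was not tested. The lowest group mean was in cKO Ly6Cneg OC cells for 29 members and in WT Ly6Chi BMM cells for 8. Between the highest and the lowest group, Ube2c, the ubiquitin-conjugating enzyme of the anaphase promoting complex, spanned 42.9-fold in reads. Birc5 (survivin, of the chromosomal passenger complex) spanned 40.5-fold. Incenp, the scaffold of the same complex, spanned 4.36-fold, between 7861 and 1803 normalised reads. As a description over the 12 group means, 37 members correlated with the mean of the others at r = 0.912 (Incenp) to 0.998 (Ccna2), and Pttg1, which encodes securin, at 0.066. These group means share their libraries and their normalisation.

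**Figure D2:**
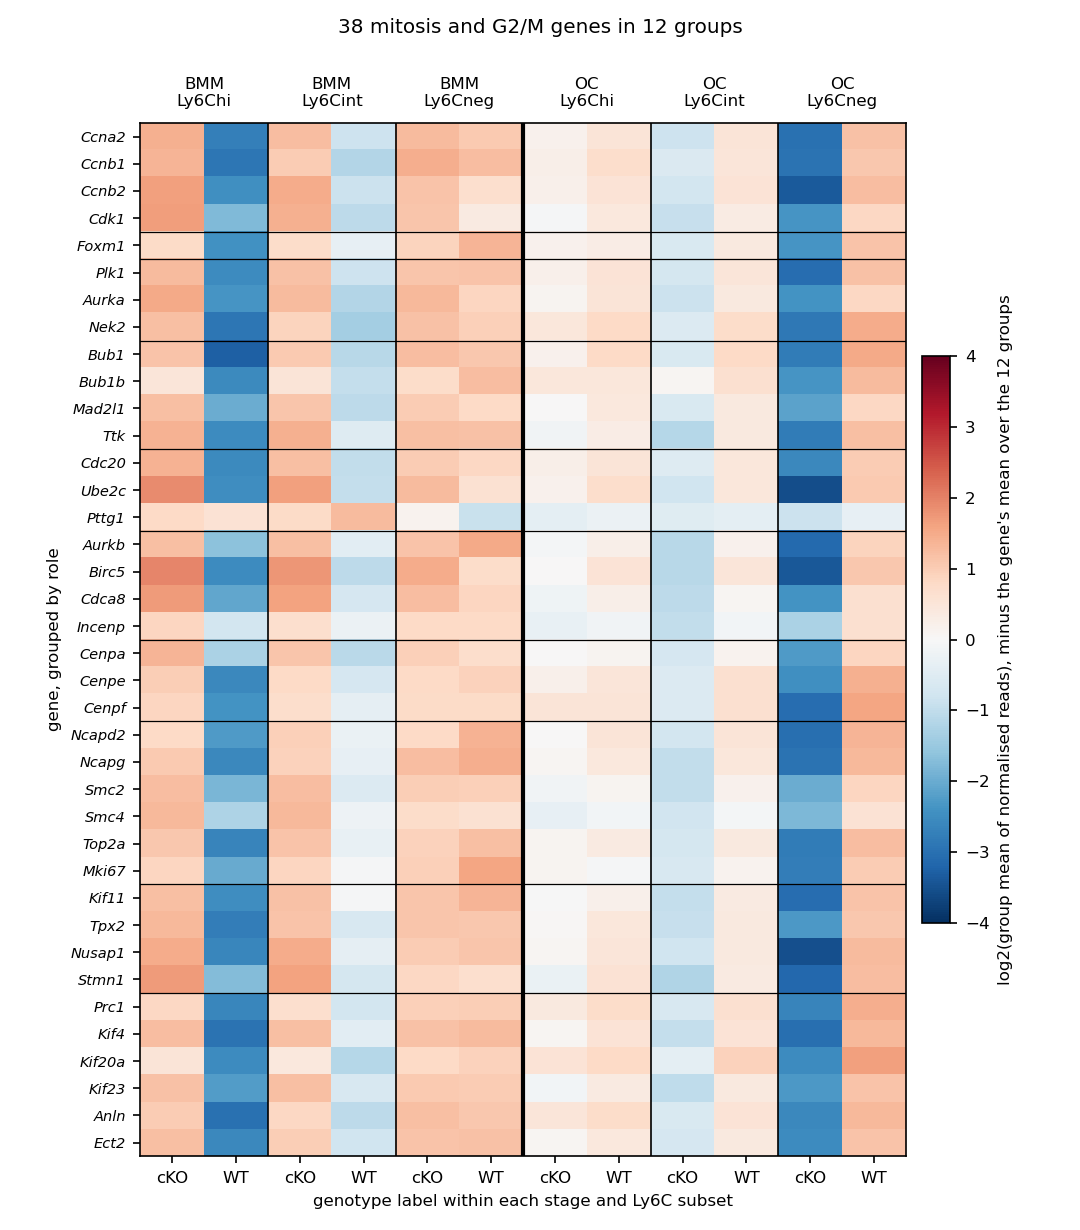
Level of each of the 38 genes in the 12 groups, as log2 of the group mean of normalised reads minus the gene's mean over the groups. Rows are ordered by role and columns pair cKO (left) with WT for each stage and Ly6C subset. Blue columns mark WT Ly6Chi BMM and cKO Ly6Cneg OC cells, and Pttg1 is the row that departs from the block.

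At day 0 the comparison of genotypes asks whether the precursors labelled cKO and WT differ before RANKL. In Ly6Chi cells 37 of the 38 members were higher in cKO than in WT libraries and none was lower, against 14.4% of all tested genes called higher and 15.3% called lower. The median difference was 3.02 in deposited units (0 over all tested genes) and 12.6-fold in reads. It was 3.33 for the 19 members with shorter coding sequences (402 to 2235 bases) and 2.81 for the 19 with longer ones (2271 to 9531 bases). The part of length was not tested. The member not called was Pttg1. Among the regulators of entry, Cdk1, the mitotic kinase, had 6534, 7198 and 7299 normalised reads in cKO libraries, against 539.6, 720.4 and 687.5 in WT libraries. All 3 cKO values were above all 3 WT values, a difference of 3.15 ± 0.09 (SE; 10.8-fold in reads; limma, adjusted p = 1.54e-26). Ccnb1, cyclin B1, had 5279, 3193 and 3265 normalised reads in cKO libraries, against 209.3, 211.7 and 193.5 in WT libraries. The first cKO library stood above the other two, and the difference was 3.50 ± 0.24 (19.1-fold; adjusted p = 1.41e-11). Foxm1, the transcription factor of the G2 programme, had 2872, 1726 and 1703 normalised reads in cKO libraries, against 240.3, 223.7 and 217.7 in WT libraries. Its groups did not overlap either (2.55 ± 0.16, 9.24-fold, adjusted p = 1.17e-13).

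Kinases and checkpoint genes differed in the same direction. Median differences were 3.13 for the mitotic kinases and 2.72 for the checkpoint genes, against 3.53 for the cyclins and Cdk1. Plk1, the Polo kinase of mitotic entry and spindle assembly, differed by 3.13 ± 0.09 (13.9-fold) between Ly6Chi cKO and WT BMM cells. Aurka, the centrosomal Aurora kinase, differed by 3.29 ± 0.08 (14.8-fold). Bub1, a checkpoint kinase of the kinetochore, had 2721, 2400 and 2066 normalised reads in cKO libraries, against 113.3, 103.9 and 121.9 in WT libraries, without overlap (3.41 ± 0.09, 21.2-fold, adjusted p = 2.93e-27). Its partner Bub1b had 4095, 2718 and 2506 normalised reads in cKO libraries, against 423.4, 402.1 and 334 in WT libraries. That difference was smaller, at 2.54 ± 0.13 (8.04-fold). Ttk, the kinase that starts the checkpoint signal, differed by 2.70 ± 0.10 (15.1-fold).

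For mitotic exit and the passenger complex, Ube2c had 6113, 6931 and 6083 normalised reads in cKO libraries, against 273.2, 352.9 and 294.9 in WT libraries. No library overlapped, and the difference was 3.83 ± 0.10 (20.8-fold; limma, adjusted p = 5.62e-28). Cdc20, the activator of the anaphase promoting complex, differed by 3.40 ± 0.09 (15.3-fold). Birc5 had 5976, 8791 and 8913 normalised reads in cKO libraries, against 291.6, 410.1 and 377.7 in WT libraries. Of all 38 members it had the greatest difference here, 3.96 ± 0.13 (21.9-fold; adjusted p = 4.04e-23). Incenp had the smallest among the called members: 8952, 7320 and 7311 normalised reads in cKO libraries, against 2720, 2602 and 2584 in WT libraries, which is 1.54 ± 0.08 (2.98-fold; adjusted p = 6.79e-18).

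Chromosome, spindle and cytokinesis genes completed the block in Ly6Chi BMM cells. Top2a, the topoisomerase that untangles replicated DNA, had 15940, 12070 and 14370 normalised reads in cKO libraries, against 1094, 1115 and 959.1 in WT libraries. These ranges were far apart (3.59 ± 0.11, 13.4-fold, adjusted p = 3.18e-26). Mki67, the coat protein of mitotic chromosomes and a marker of cycling cells, had 14280, 10810 and 12050 normalised reads in cKO libraries, against 2219, 1538 and 1357 in WT libraries. It differed by 2.81 ± 0.22 (7.26-fold). Smc4, the condensin ATPase, differed by 2.52 ± 0.08 (5.84-fold) and Cenpa, the centromeric histone, by 2.45 ± 0.08 (6.13-fold). Kif11, the motor that separates spindle poles, differed by 3.13 ± 0.11 (12.7-fold). Kif4, a chromosome and midzone kinesin, differed by 3.04 ± 0.11 (18.6-fold). Anln, the anillin of the cleavage furrow, differed by 3.30 ± 0.11 (16.1-fold). Kif20a, a midzone kinesin, differed by 2.36 ± 0.12 (8.22-fold). Stmn1, which destabilises microtubules, ranged from 15130 to 27560 normalised reads in cKO libraries, against 1428 to 2357 in WT libraries (3.40 ± 0.27, 11-fold, adjusted p = 2.59e-10).

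Markers of other cells moved with the same comparison. All 8 neutrophil genes were higher in Ly6Chi cKO cells, with sums of 871000 to 1650000 normalised reads, against 91600 to 119000 in WT cells. All 5 granulocyte precursor genes in the table were higher, with sums of 5640 to 28600 against 305 to 391. Of the 8 macrophage genes, 7 were lower and 1 was higher, with sums of 32200 to 41600 against 241000 to 251000. None of the genes in these 3 lists was at 0 in either group. Their part in the differences of the mitosis genes was not tested.

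Ly6Cint cells showed the same direction at day 0 with a smaller size. Here 37 members were higher in cKO than in WT cells (25% of all tested genes were called higher) and 1, Pttg1, was lower (14.7% of all tested genes were called lower). The median difference was 1.66 (3.51-fold in reads), against 0.28 over all tested genes. Cdk1 had 6081, 5477 and 6267 normalised reads in cKO libraries, against 1075, 1095 and 996.8 in WT libraries. The groups were separate, by 2.33 ± 0.09 (5.63-fold; limma, adjusted p = 2.06e-22). Birc5 again differed most, by 2.62 ± 0.13 (6.99-fold), followed by Ube2c with 2.38 ± 0.10 (6.01-fold). At the other end were Mki67 with 0.94 ± 0.22 (1.88-fold), Foxm1 with 0.92 ± 0.16 (2.09-fold) and Incenp with 0.89 ± 0.08 (1.86-fold). Median differences were 1.92 for the 19 members with shorter coding sequences and 1.33 for the 19 with longer ones. The part of length was not tested. Granulocyte precursor genes, 5 of 5 higher, summed to 71000 to 81400 normalised reads in cKO cells, against 1380 to 1760 in WT cells. Neutrophil genes, 7 of 8 higher, summed to 1470000 to 1670000 against 587000 to 647000. Macrophage genes, 7 of 8 lower, summed to 22000 to 25400 against 238000 to 273000, and the part of these markers in the result was not tested.

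In Ly6Cneg cells at day 0 the median member was at a similar level in both genotypes, and the members divided. In cKO against WT cells 8 were higher and 4 were lower, with a median difference of 0.04 (1.03-fold; 0.27 over all tested genes), beside 13.6% of all tested genes higher and 9.42% lower. Counts of this size lie near the background. Those called higher were Pttg1, Cdk1, Birc5, Ube2c, Ccnb2, Aurka, Cdca8 and Cenpa. Cdk1 had 5330, 4723 and 4320 normalised reads in cKO libraries, against 2874 and 2791 in WT libraries, without overlap (0.73 ± 0.10, 1.69-fold, adjusted p = 7.68e-07). Ube2c had 4679, 4453 and 3461 normalised reads in cKO libraries, against 2722 and 2576 in WT libraries (0.63 ± 0.11, 1.58-fold, adjusted p = 3.63e-05). Cdca8, or borealin, a passenger complex subunit, differed by 0.36 ± 0.10 (adjusted p = 0.00647), and Cenpa by 0.25 ± 0.09 (adjusted p = 0.039).

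Those called lower in cKO Ly6Cneg BMM cells were Ncapd2, Bub1b, Foxm1 and Aurkb. Ncapd2, a condensin I subunit, had 4639, 4114 and 5815 normalised reads in cKO libraries, against 7346 and 7262 in WT libraries, without overlap (−0.60 ± 0.11, adjusted p = 5.72e-05). Aurkb, the kinase of the passenger complex, had 2907, 2725 and 3041 normalised reads in cKO libraries, against 3748 and 3766 in WT libraries (−0.36 ± 0.09, adjusted p = 0.00208). Bub1b differed by −0.49 ± 0.15 (adjusted p = 0.0138) and Foxm1 by −0.50 ± 0.18 (adjusted p = 0.0448). Top2a (−0.31 ± 0.12, adjusted p = 0.0517) and Mki67 (−0.69 ± 0.25, adjusted p = 0.0523) just missed the threshold. Each was called under 5 of 9 other settings, with library weights (adjusted p = 0.0173 for Top2a and 0.0186 for Mki67) and voom (0.0268 for Top2a and 0.00288 for Mki67) among them. In a fit of only the libraries compared, 1 member was called lower, and Aurkb (adjusted p = 0.0635), Bub1b (0.0877), Foxm1 (0.133), Cdca8 (0.0787) and Cenpa (0.209) lost their calls.

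Single libraries decided several of these calls. Without cKO replicate 2 the count called lower was 2, and Bub1b (adjusted p = 0.113), Foxm1 (0.246) and Cenpa (0.11) lost their calls. Without cKO replicate 3 the count was 8, with Top2a (adjusted p = 0.00193) and Mki67 (0.00672) among them. Without cKO replicate 1, Foxm1 (adjusted p = 0.101) and Cenpa (0.16) were not called. Without WT replicate 1, Foxm1 (adjusted p = 0.106), Cdca8 (0.0544) and Cenpa (0.0915) were not called. Without WT replicate 2 the count called lower was 2, and Bub1b (adjusted p = 0.131), Foxm1 (0.239), Cdca8 (0.0532) and Cenpa (0.244) were not called. Coding length moved with the split: of the 19 members with shorter coding sequences (402 to 2235 bases) 8 were higher and 1 was lower, whereas of the 19 with longer ones (2271 to 9531 bases) none was higher and 3 were lower. Replicate 3 of the cKO group had the longer members at 1.3-fold and the shorter ones at 0.97-fold of the other libraries of its group (medians), and replicate 2 had the longer ones at 0.82-fold. The part of length in these calls was not tested.

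Beside these values, all 5 mast cell and basophil genes were lower in Ly6Cneg cKO BMM cells, with sums of 77.4 to 143 normalised reads, against 3260 to 4220 in WT cells. Stem and progenitor genes, 5 of 6 lower, summed to 1820 to 2220 against 4100 to 4250. Granulocyte precursor genes, with none of 5 called, summed to 21400 to 32200 against 37500 to 45800. Neutrophil genes, 4 of 8 higher, summed to 30700 to 82700 against 23100 to 26000, and macrophage genes, 4 of 8 lower and 1 higher, to 29400 to 35900 against 85700 to 98000. Their part was not tested.

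**Figure D3:**
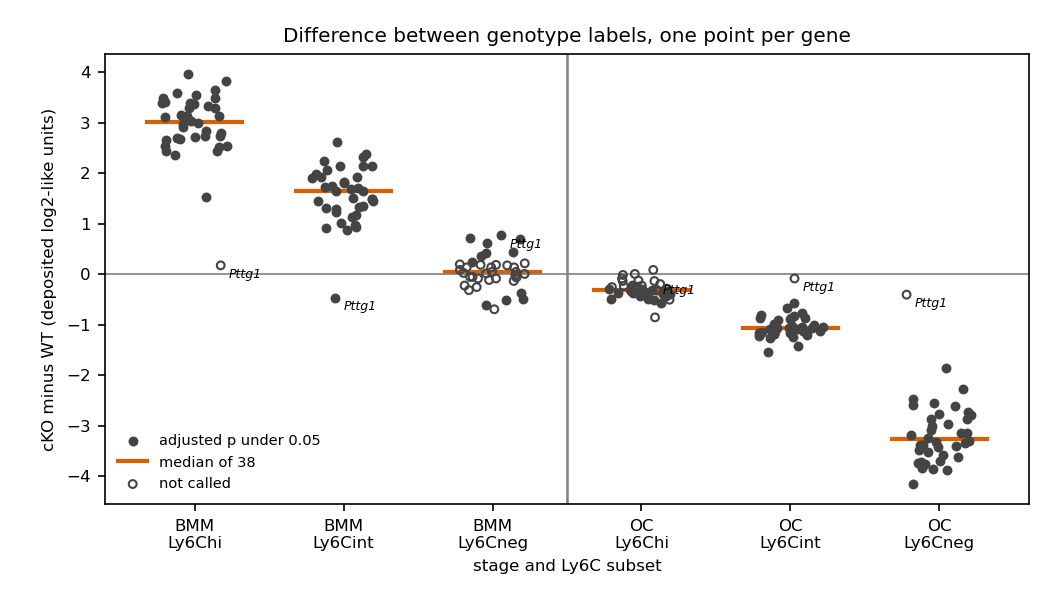
Difference between cKO and WT for each of the 38 genes, in deposited log2-like units, by stage and Ly6C subset. Filled points passed the threshold, open points did not, and bars are medians, which are 3.02, 1.66 and 0.04 at day 0 and −0.30, −1.07 and −3.26 at day 4 for Ly6Chi, Ly6Cint and Ly6Cneg cells in that order.

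After RANKL the same comparison had the other sign in Ly6Chi and Ly6Cint cells. In Ly6Cneg cells, where the members had divided at day 0, it was negative. The size of the difference ran the other way along the subsets. In Ly6Chi OC cells no member was higher in cKO and 18 were lower, beside 4.25% of all tested genes higher and 3.61% lower. The median difference was −0.30 (0.787-fold), and the median over all tested genes was 0 in each of the 3 OC comparisons of genotype. Of the 19 members with shorter coding sequences 13 were lower, and of the 19 with longer ones 5 were lower. The part of length in these calls was not tested. The count called lower was 12 to 16 when 1 library was left out and 13 to 28 under the other alternatives. The 28 came when only the libraries compared were fitted, and the share of all genes in that fit was not counted. Bub1 had 1073, 1292 and 1329 normalised reads in cKO libraries, against 1951, 1878 and 1850 in WT libraries, without overlap (−0.56 ± 0.09, adjusted p = 3.4e-05). Ube2c had 1822, 2074 and 1914 normalised reads in cKO libraries, against 2783, 2803 and 2826 in WT libraries (−0.50 ± 0.10, adjusted p = 0.000382). Cdk1 differed by −0.43 ± 0.09 (0.725-fold) and Ncapd2 by −0.48 ± 0.10 (0.708-fold). Birc5 differed by −0.48 ± 0.13 (adjusted p = 0.0141), a call that was lost without cKO replicate 2 (0.0871) or 3 (0.0761) and without WT replicate 2 (0.119). Stmn1 differed by −0.85 ± 0.27 and missed the threshold (adjusted p = 0.0557). It passed without cKO replicate 1 (0.0434), with the stricter filter (0.045), under quantile normalisation (0.03) and with library weights (0.00196). Osteoclast genes of Ly6Chi OC cells, with none of 10 called by limma, summed to 1100000 to 1200000 normalised reads in cKO cells and 1310000 to 1350000 in WT cells. None of the 8 neutrophil and 5 granulocyte precursor genes was called, while 4 of 8 macrophage genes were lower and 1 was higher, with sums of 18800 to 21300 in cKO cells, against 30100 to 32400 in WT cells. Their part was not tested.

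In Ly6Cint OC cells 37 members were lower in cKO and none was higher, beside 5.94% of all tested genes lower and 8.18% higher. The exception was Pttg1, and the median difference was −1.07 (0.431-fold). Cdk1 had 1055, 1182 and 1216 normalised reads in cKO libraries, against 2830, 2581 and 2940 in WT libraries, without overlap (−1.15 ± 0.09, 0.413-fold, adjusted p = 1.13e-12). Kif23, a centralspindlin motor needed for cytokinesis, had 1022, 972.4 and 925.3 normalised reads in cKO libraries, against 2742, 2521 and 2449 in WT libraries (−1.25 ± 0.08, 0.379-fold, adjusted p = 2.34e-14). The greatest differences were those of Stmn1 (−1.53 ± 0.27, 0.332-fold) and Birc5 (−1.41 ± 0.13, 0.335-fold). Top2a differed by −1.11 ± 0.11 (0.463-fold) and Bub1b, the least among the called members, by −0.56 ± 0.13 (0.664-fold). Osteoclast genes, 4 of 10 higher, summed to 1400000 to 1440000 normalised reads in cKO cells, against 886000 to 954000 in WT cells. Neutrophil genes, 8 of 8 higher, summed to 31200 to 40100 against 1830 to 2390, and granulocyte precursor genes, 5 of 5 higher, to 281 to 761 against 37 to 59.3. Macrophage genes, 6 of 8 lower, summed to 15000 to 16800 against 44100 to 45000, and the part of these markers was not tested.

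Ly6Cneg OC cells held the widest gap at day 4. Again 37 members were lower in cKO and none was higher, beside 7.52% of all tested genes lower and 9.53% higher, with a median difference of −3.26 (0.0622-fold). Cdk1 had 462.9, 478.5 and 355.9 normalised reads in cKO libraries, against 3906 and 3906 in WT libraries (−2.77 ± 0.10, 0.111-fold, adjusted p = 5.75e-23). Ube2c had 143, 179.4 and 123.3 normalised reads in cKO libraries, against 3783 and 3418 in WT libraries (−3.73 ± 0.11, 0.0413-fold, adjusted p = 9.65e-26). Top2a had 1024, 973 and 868.1 normalised reads in cKO libraries, against 14950 and 15920 in WT libraries (−3.85 ± 0.12, 0.0619-fold, adjusted p = 3.77e-25). In none of these did the libraries overlap. Nusap1, a spindle microtubule binder, had the lowest ratio of reads, at 0.0361 (−3.69 ± 0.11), followed by Cenpf, a kinetochore protein of G2 cells, at 0.0397 (−3.84 ± 0.17). Cyclin B2 (Ccnb2) stood at 0.0415-fold (−3.76 ± 0.09) and Aurkb at 0.0621-fold (−3.18 ± 0.09). Stmn1 had the greatest difference in deposited units, −4.14 ± 0.30 (0.0485-fold). Incenp, with 1802, 1923 and 1684 normalised reads in cKO libraries, against 6852 and 6799 in WT libraries, differed by −1.85 ± 0.09 (0.264-fold). Cenpa differed by −2.79 ± 0.09 (0.115-fold).

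In the same Ly6Cneg OC comparison all 10 osteoclast genes were higher in cKO cells, with sums of 649000 to 783000 normalised reads, against 118000 to 130000 in WT cells. Stromal cell genes, 5 of 6 higher, summed to 13500 to 19600 in cKO cells, against 180 to 454 in WT cells and at most 84.9 in the Ly6Chi and Ly6Cint OC cells of both genotypes. Neutrophil genes, 8 of 8 higher, summed to 28800 to 40000 against 4600 to 6220. Macrophage genes, 4 of 8 lower and 2 higher, summed to 46800 to 53300 against 68400 to 72600. The part of these markers was not tested.

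The day 4 cultures with RANKL were compared with day 0 within each genotype and subset. With no day 4 library without RANKL, a difference may stem from RANKL or from time in culture. These comparisons use the same libraries as those of genotype, so their values stand side by side. In cKO cells the members went down in all subsets. For cKO Ly6Chi cells 34 members were lower at OC than at BMM and none was higher (26.3% of all tested genes lower, 15.5% higher), with a median difference of −1.11 (0.44-fold; −0.27 over all tested genes). The 4 not called were Bub1b, Cenpf, Prc1 and Kif20a. Kif20a had 1480, 1711 and 1759 normalised reads in OC libraries, against 2186, 1421 and 1228 in BMM libraries, which overlapped. Cdk1 differed by −1.67 ± 0.09 (0.303-fold), Birc5 by −1.86 ± 0.13 (0.262-fold), Cdca8 by −1.77 ± 0.09 (0.275-fold) and Stmn1 by −1.96 ± 0.27 (0.257-fold). Foxm1 differed by −0.51 ± 0.16 (adjusted p = 0.0119), and the call was lost without cKO OC replicate 1 (0.069) or cKO BMM replicate 1 (0.128).

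For cKO Ly6Cint cells all 38 members were lower at OC (32.3% of all tested genes lower, 16.4% higher), with a median of −1.68 (0.275-fold; −0.34 over all tested genes). Stmn1 differed by −2.74 ± 0.27 (0.14-fold), Birc5 by −2.66 ± 0.13 (0.138-fold) and Cdk1 by −2.22 ± 0.09 (0.194-fold). The least was Bub1b at −0.41 ± 0.13 (0.736-fold, adjusted p = 0.0091), not called without cKO OC replicate 3 (0.053). For cKO Ly6Cneg cells all 38 were again lower (28% of all tested genes lower, 14.5% higher), with a median of −3.06 (0.0769-fold; −0.36 over all tested genes). Birc5 had 173.4, 221.5 and 189.5 normalised reads in OC libraries, against 6513, 5778 and 4667 in BMM libraries, far from overlap (−4.10 ± 0.13, 0.0345-fold, adjusted p = 1.95e-23). Ube2c followed with −3.94 ± 0.10 (0.0354-fold), and Cdk1 differed by −3.06 ± 0.09 (0.0903-fold). Incenp differed by −2.00 ± 0.08 (0.237-fold).

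Markers of other cells moved with stage in cKO cells too. All 5 granulocyte precursor genes were lower at OC in each cKO subset, with sums of 53.6 to 139 normalised reads in Ly6Chi OC cells, against 5640 to 28600 in Ly6Chi BMM cells. The sums were 281 to 761 in Ly6Cint OC cells, against 71000 to 81400 in Ly6Cint BMM cells, and 79.2 to 126 in Ly6Cneg OC cells, against 21400 to 32200 in Ly6Cneg BMM cells. All 8 neutrophil genes were lower at OC in cKO Ly6Chi cells (1860 to 4560, against 871000 to 1650000 in BMM cells) and in cKO Ly6Cint cells (31200 to 40100, against 1470000 to 1670000 in BMM cells). In cKO Ly6Cneg cells 3 of them were lower and 1 was higher (28800 to 40000, against 30700 to 82700 in BMM cells), and stromal genes, 3 of 6 higher, summed to 13500 to 19600 in OC cells, against 725 to 1420 in BMM cells. Macrophage genes were lower at OC for 7 of 8 in cKO Ly6Chi cells (18800 to 21300, against 32200 to 41600) and for 6 of 8 in cKO Ly6Cint cells (15000 to 16800, against 22000 to 25400). Their part was not tested.

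In WT cells the direction was up where day 0 levels had been low. For WT Ly6Chi cells 37 members were higher at OC than at BMM and 1, Pttg1, was lower (13.7% of all tested genes higher, 20.4% lower), with a median of 2.39 (7.9-fold; −0.28 over all tested genes). Bub1 had 1951, 1878 and 1850 normalised reads in OC libraries, against 113.3, 103.9 and 121.9 in BMM libraries, without overlap (3.10 ± 0.09, 16.7-fold, adjusted p = 3.1e-26). Anln had 2834, 2847 and 2699 normalised reads in OC libraries, against 204.4, 230.4 and 203.7 in BMM libraries (3.04 ± 0.11, 13.1-fold, adjusted p = 4.26e-23). Nek2, a centrosomal kinase, differed by 2.76 ± 0.11 (12.9-fold), Ube2c by 2.68 ± 0.10 (9.13-fold) and Cdk1 by 1.92 ± 0.09 (4.51-fold). Smc4 (1.1 ± 0.08, 2.21-fold) and Incenp (0.55 ± 0.08, 1.49-fold) had the smallest increases. Osteoclast genes summed to 1310000 to 1350000 in these OC cells, against 13400 to 20400 in the BMM cells. All 8 neutrophil genes were lower at OC (1460 to 1940, against 91600 to 119000 in BMM cells), as were all 8 macrophage genes (30100 to 32400, against 241000 to 251000), and their part was not tested.

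For WT Ly6Cint cells 34 members were higher and 1 was lower at OC (13.1% of all tested genes higher, 15.4% lower), with a median of 1 (2.18-fold; −0.06 over all tested genes). Kif20a had 2248, 2097 and 2026 normalised reads in OC libraries, against 537.5, 478.9 and 494.9 in BMM libraries, without overlap (1.76 ± 0.12, 4.22-fold, adjusted p = 3.71e-15). Nek2 differed by 1.68 ± 0.11 (4.27-fold), Bub1 by 1.61 ± 0.09 (3.74-fold), Cdk1 by 1.26 ± 0.09 (2.64-fold) and Top2a by 0.69 ± 0.11 (1.6-fold). Incenp, Smc4 and Mki67 were not called. Mki67 had 8359, 7832 and 6688 normalised reads in OC libraries, against 8185, 5146 and 6852 in BMM libraries, which overlapped. Median differences were 1.23 for the 19 members with shorter coding sequences and 0.77 for the 19 with longer ones. The part of length was not tested. All 8 neutrophil genes were lower at OC here as well (1830 to 2390, against 587000 to 647000 in BMM cells), and so were all 8 macrophage genes (44100 to 45000, against 238000 to 273000). Their part was not tested.

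In WT Ly6Cneg cells few members were called between the stages. At OC 8 members were higher and 1 was lower (6.55% of all tested genes higher, 5.69% lower), with a median of 0.05 (1.04-fold; −0.03 over all tested genes). Higher were Cenpf (0.78 ± 0.18, adjusted p = 0.00232), Kif20a (0.68 ± 0.15, adjusted p = 0.000912), Ccnb2 (0.54 ± 0.10, adjusted p = 0.000125), Cenpe (0.49 ± 0.13, adjusted p = 0.00578), Nek2 (0.47 ± 0.13), Cdk1 (0.45 ± 0.11), Ube2c (0.42 ± 0.12) and Bub1 (0.40 ± 0.11). Lower was Aurkb, with 2498 and 2387 normalised reads in OC libraries, against 3748 and 3766 in BMM libraries (−0.59 ± 0.10, adjusted p = 9.36e-06). With 2 libraries on each side, single libraries mattered. The count called higher was 5 without BMM replicate 2 and without either OC replicate. Bub1 lost its call without BMM replicate 1 (adjusted p = 0.0711) or 2 (0.0763) and without OC replicate 1 (0.063) or 2 (0.0858). Nek2 lost it without BMM replicate 2 (adjusted p = 0.123) and without OC replicate 1 (0.052) or 2 (0.11). Ube2c lost it without BMM replicate 2 (adjusted p = 0.123) or OC replicate 1 (0.18), and Cenpe without BMM replicate 1 (0.144) or OC replicate 2 (0.0532). When only these 4 libraries were fitted, 16 members were called higher and 5 lower, and the share of all genes in that fit was not counted. Granulocyte precursor genes, 5 of 5 lower, summed to 84.7 to 120 normalised reads in OC cells, against 37500 to 45800 in BMM cells, and stem and progenitor genes, 5 of 6 lower, to 583 to 644 against 4100 to 4250. Their part was not tested.

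**Figure D4:**
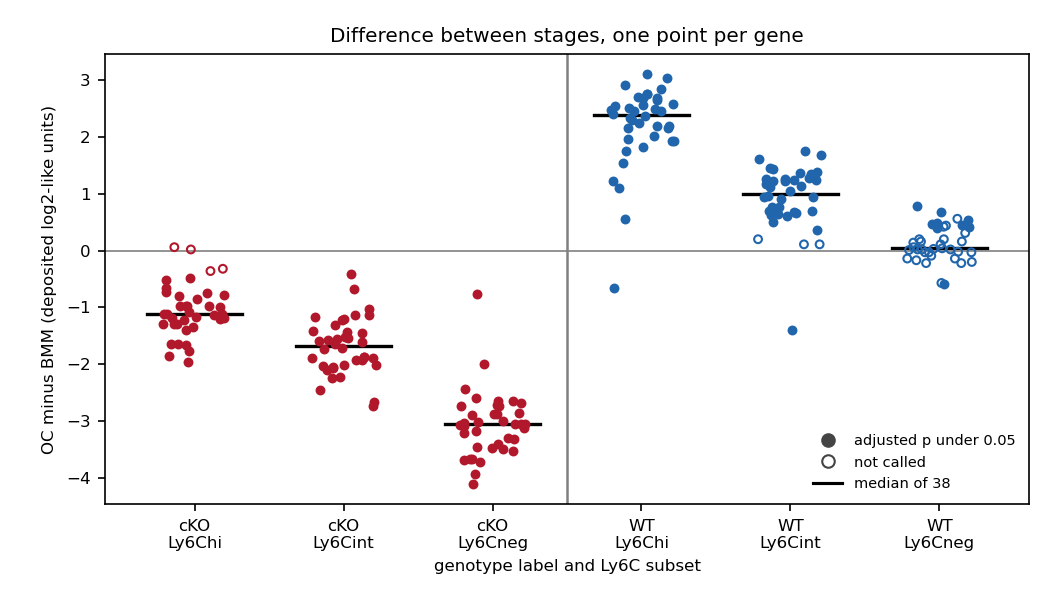
Difference between OC and BMM for each of the 38 genes, in deposited log2-like units, by genotype and Ly6C subset. Filled points passed the threshold, open points did not, and bars are medians, at −1.11, −1.68 and −3.06 in cKO cells and 2.39, 1 and 0.05 in WT cells for Ly6Chi, Ly6Cint and Ly6Cneg subsets in that order.

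The difference between the 2 genotype effects was tested directly, as cKO minus WT in OC less cKO minus WT in BMM. It was negative for 37 members in Ly6Chi cells (11.6% of all tested genes called lower), for 37 in Ly6Cint cells (13.1%) and for all 38 in Ly6Cneg cells (8.71%). No member was called the other way, against 12.1%, 13% and 8.58% of all tested genes in the same order. The medians were −3.37, −2.70 and −3.23, against −0.02, −0.24 and −0.26 over all tested genes. Birc5 led in all 3 subsets, with −4.44 ± 0.18 in Ly6Chi, −4.03 ± 0.18 in Ly6Cint and −4.41 ± 0.20 in Ly6Cneg cells. For Cdk1 the values were −3.59 ± 0.13, −3.48 ± 0.13 and −3.50 ± 0.14. Ube2c had −4.33 ± 0.14 in Ly6Chi and −4.36 ± 0.15 in Ly6Cneg cells, and Incenp −1.67 ± 0.12 in Ly6Chi cells. Whether cKO minus WT differed among the 3 subsets was tested with limma's F test. It did for all 38 members at day 0 (20.8% of all tested genes) and for 37 at day 4 (13.4%).

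Within one genotype and stage, the order of the Ly6C subsets varied, and it was opposite in WT BMM and cKO OC cells. Among WT BMM cells, 37 members were higher in Ly6Cint than in Ly6Chi cells and none was lower (8.52% of all tested genes higher, 7.09% lower), with a median of 1.26 (3.15-fold). Top2a had 6173, 4793 and 5330 normalised reads in Ly6Cint libraries, against 1094, 1115 and 959.1 in Ly6Chi libraries, without overlap (2.19 ± 0.11, 5.14-fold, adjusted p = 1.31e-18). Kif4 differed by 1.68 ± 0.11 (5.82-fold), Kif11 by 1.97 ± 0.11 (5.36-fold) and Cdk1 by 0.59 ± 0.09 (1.63-fold). Cenpa was not called, with 1309, 1203 and 1125 normalised reads in Ly6Cint libraries, against 980.4, 1127 and 1108 in Ly6Chi libraries. Neutrophil genes, 8 of 8 higher, summed to 587000 to 647000 normalised reads in Ly6Cint cells, against 91600 to 119000 in Ly6Chi cells, and granulocyte precursor genes, 3 of 5 higher, to 1380 to 1760 against 305 to 391. Ly6Cneg cells of the same stage and genotype had 37 members higher than Ly6Chi cells and 1, Pttg1, lower (10.6% of all tested genes higher, 10% lower), with a median of 2.87 (11.7-fold). Bub1 differed by 3.35 ± 0.10 (20.2-fold), Top2a by 3.71 ± 0.12 (14.4-fold), Cdk1 by 1.87 ± 0.10 (4.36-fold) and Incenp by 1.48 ± 0.09 (2.85-fold). Beside this, the 6 stem and progenitor genes summed to 4100 to 4250 normalised reads in WT Ly6Cneg BMM cells, against 338 to 459 in WT Ly6Chi cells, and granulocyte precursor genes to 37500 to 45800 against 305 to 391. Mast cell and basophil genes summed to 3260 to 4220 against 8.72 to 20, and dendritic cell genes to 2250 to 2640 against 155 to 232. Sums were lower in Ly6Cneg cells for neutrophil genes (23100 to 26000 against 91600 to 119000) and macrophage genes (85700 to 98000 against 241000 to 251000). Their part was not tested.

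Among cKO BMM cells the subsets lay close together. Between Ly6Cint and Ly6Chi cells no member was called in either direction with limma (4.04% of all tested genes higher, 2.79% lower), and voom on the recovered reads called 3 lower. Between Ly6Cneg and Ly6Chi cells 12 were lower and none was higher (8.22% of all tested genes lower, 18.8% higher), with a median of −0.15 (0.24 over all tested genes). Under quantile normalisation the median was 0.02, with 3 members higher and 7 lower, and a fit of only the libraries compared called 5 lower. Smc4 had 10460, 9305 and 7778 normalised reads in Ly6Cneg libraries, against 13750, 12570 and 14240 in Ly6Chi libraries, without overlap (−0.58 ± 0.08, adjusted p = 1.15e-06). Ube2c differed by −0.61 ± 0.10 and Cdk1 by −0.55 ± 0.09. Stmn1 differed by −0.87 ± 0.27 (adjusted p = 0.0204), a call lost without Ly6Chi replicate 3 (0.122) or Ly6Cneg replicate 1 (0.0911), under quantile normalisation (0.136) and with library weights (0.0577). Without Ly6Chi replicate 1, 5 members were called higher. That library had the longer members at 1.25-fold and the shorter ones at 1.08-fold of the other libraries of its group, and of the 12 calls 10 were among the shorter members.

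After RANKL the order in cKO cells was the reverse of that in WT cells at day 0. Of the members, 34 were lower in cKO Ly6Cint than in cKO Ly6Chi OC cells and none was higher (2.39% of all tested genes lower, 2.88% higher), with a median of −0.78 (0.539-fold). Birc5 (−0.98 ± 0.13, 0.459-fold) and Anln (−0.98 ± 0.11, 0.469-fold) differed most, and Smc4 (−0.44 ± 0.08, 0.729-fold) least among those called. In cKO Ly6Cneg OC cells 37 were lower than in cKO Ly6Chi OC cells and none was higher (9.08% of all tested genes lower, 14.4% higher), with a median of −2.31 (0.135-fold). Ube2c differed by −2.89 ± 0.10 (0.0767-fold), Cenpf by −2.81 ± 0.15 (0.0842-fold) and Incenp by −0.92 ± 0.08 (0.506-fold). Stromal genes, 5 of 6 higher, summed to 13500 to 19600 normalised reads in these Ly6Cneg cells, against 44.2 to 65.7 in Ly6Chi cells, neutrophil genes, 8 of 8 higher, to 28800 to 40000 against 1860 to 4560, and macrophage genes, 6 of 8 higher, to 46800 to 53300 against 18800 to 21300. Neutrophil genes were also higher, 8 of 8, in cKO Ly6Cint than in cKO Ly6Chi OC cells (31200 to 40100 against 1860 to 4560), and the part of these markers was not tested. Among WT OC cells no member was called between Ly6Cint and Ly6Chi with limma (1.59% of all tested genes higher, 1.31% lower), and fitting only those libraries called 2 higher and 1 lower. In WT Ly6Cneg OC cells 35 were higher than in Ly6Chi OC cells and none was lower (10.9% of all tested genes higher, 8.12% lower), with a median of 0.67 (1.64-fold). Cenpf (1.03 ± 0.17, 2.11-fold), Mki67 (1.06 ± 0.25, 2.06-fold) and Bub1b (0.81 ± 0.15, 1.78-fold) differed more than Cdk1 (0.40 ± 0.10, 1.33-fold). Osteoclast genes summed to 118000 to 130000 normalised reads in WT Ly6Cneg OC cells, against 1310000 to 1350000 in WT Ly6Chi OC cells. Macrophage genes summed to 68400 to 72600 in WT Ly6Cneg OC cells, against 30100 to 32400 in WT Ly6Chi OC cells. The part of these markers was not tested.

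Pttg1 followed another order over the 12 groups. Securin, its product, holds separase inactive until anaphase and is destroyed through the anaphase promoting complex. In BMM libraries it had 862.4, 1459 and 1396 normalised reads in cKO Ly6Chi cells, against 823.5, 1145 and 1209 in WT Ly6Chi cells, which overlapped (0.18 ± 0.14, limma, adjusted p = 0.397). Without cKO Ly6Chi replicate 1 the difference was 0.39 (adjusted p = 0.0248). Ly6Cint cells had 1361, 991.2 and 1242 normalised reads in cKO libraries, against 1622, 1746 and 1750 in WT libraries, the highest group mean of the gene. There it was lower in cKO cells (−0.46 ± 0.14, adjusted p = 0.00967), although not without cKO replicate 2 (0.0693). In Ly6Cneg cells it was higher, with 843.2, 935.8 and 574.7 normalised reads in cKO libraries, against 396.4 and 373 in WT libraries (0.78 ± 0.16, 2.04-fold, adjusted p = 0.000381).

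In OC libraries Pttg1 lay between 380.4 and 691.3 normalised reads in all 6 groups, and the genotypes were not called different in any subset. The nearest was Ly6Cneg, with 393.1, 380.4 and 408 normalised reads in cKO libraries, against 562.6 and 567 in WT libraries (−0.40 ± 0.16, adjusted p = 0.0888). These libraries did not overlap, and the difference was called with library weights (adjusted p = 0.00406) and in a fit of only the libraries compared (7.83e-05). Against BMM cells it was lower in OC cells in all 3 cKO subsets, as the other members mostly were: in Ly6Chi (−0.97 ± 0.14, 0.433-fold), Ly6Cint (−1.02 ± 0.14, 0.419-fold) and Ly6Cneg cells (−0.76 ± 0.14, 0.502-fold). In WT cells it was lower at OC in Ly6Chi cells (−0.66 ± 0.14, 0.57-fold) and in Ly6Cint cells (−1.40 ± 0.14, 0.318-fold), where most members were higher, and in Ly6Cneg cells the difference was 0.42 ± 0.17 (adjusted p = 0.13). Library weights (0.00525) and a fit of only the libraries compared (0.000298) called the last one higher. Within WT BMM cells it was lower in Ly6Cneg than in Ly6Chi cells (−1.15 ± 0.16, 0.363-fold), where the other 37 members were higher. The genotype by stage term was −1.18 ± 0.22 in Ly6Cneg cells (adjusted p = 0.000175), −0.32 ± 0.20 in Ly6Chi cells (0.319) and 0.38 ± 0.20 in Ly6Cint cells (0.177). Without cKO Ly6Chi BMM replicate 1 the term in Ly6Chi cells was −0.52 (adjusted p = 0.0283).

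**Figure D5:**
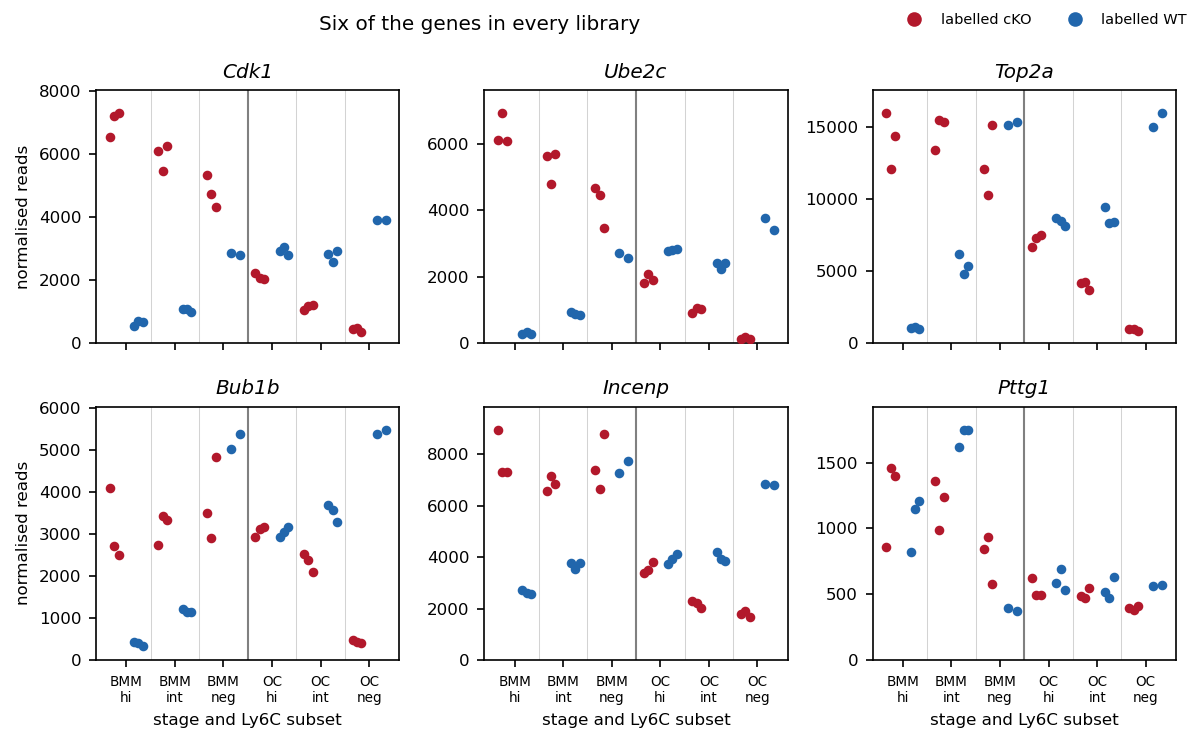
Normalised reads of 6 members in every library, cKO left of WT within each stage and Ly6C subset, on linear axes that start at 0. Cdk1, Ube2c, Top2a and Bub1b are low in WT Ly6Chi BMM and cKO Ly6Cneg OC libraries, Incenp spans a narrower range (4.36-fold between group means) and Pttg1 follows another order.

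Other genes of the cycle were counted in 10 lists. In Ly6Chi BMM cells, where 14.4% of all tested genes were higher and 15.3% lower, all 25 DNA replication genes, all 18 outer kinetochore genes and all 15 further kinesins and spindle genes were higher in cKO than in WT cells. Their median differences were 2.5, 2.39 and 2.77. Rrm2, a subunit of ribonucleotide reductase, had mean values of 5147 in cKO and 262.6 normalised reads in WT cells (3.68 ± 0.09, 19.6-fold). Spc24, of the Ndc80 complex that grips microtubules, had 1707 in cKO and 82.47 in WT cells (3.24 ± 0.11, 20.7-fold). Kif2c, a microtubule-depolymerising kinesin, had 2340 in cKO and 145.3 in WT cells (3.17 ± 0.09, 16.1-fold). Mitotic entry control had 11 of 12 genes higher and 1 lower, led by Melk (2.99 ± 0.10, 16.2-fold), a kinase of proliferating cells. Of the G1 cyclins and kinases all 8 were higher, led by Ccne2, cyclin E2 (3.18 ± 0.09, 19.6-fold). The anaphase promoting complex core moved little, with 8 of 15 higher, 1 lower and a median of 0.27. Condensin and cohesin genes had 11 of 16 higher and 1 lower, centriole duplication genes 3 of 6 higher and none lower.

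Regulators and inhibitors were mixed in that comparison. Of 19 MuvB, DREAM and E2F genes 13 were higher and 3 lower, led by Mybl2, or B-Myb (2.80 ± 0.10, 13.9-fold). Of 16 cell cycle inhibitors 8 were higher and 4 lower (14.4% and 15.3% over all tested genes). Cdkn2c, the Cdk4 and Cdk6 inhibitor p18, had mean values of 6115 in cKO and 638.8 normalised reads in WT cells (2.96 ± 0.08, 9.57-fold). Cdkn2d, the related inhibitor p19, differed by 2.46 ± 0.09 (6.48-fold), and Cdkn2a by 1.32 ± 0.24 (58.84 in cKO and 11.75 in WT cells, with libraries that overlapped). Btg1, an antiproliferative gene, had 5343 in cKO and 10940 in WT cells (−1.06 ± 0.09, 0.488-fold).

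Ly6Cneg OC cells, where 7.52% of all tested genes were lower and 9.53% higher, gave the reverse in the lists closest to mitosis. There 23 of 25 DNA replication genes (median −1.44), 17 of 18 outer kinetochore genes (−2.31), all 15 further kinesins and spindle genes (−3.05) and 12 of 16 condensin and cohesin genes were lower in cKO than in WT cells. All 6 centriole duplication genes, 10 of 12 mitotic entry genes and 5 of 15 core genes of the anaphase promoting complex were lower as well, and no gene of these 7 lists was higher. Hmmr, a spindle pole protein, had mean values of 112.6 in cKO and 2468 normalised reads in WT cells (−3.46 ± 0.12, 0.0456-fold). Rrm2 had 444.2 in cKO and 3683 in WT cells (−2.65 ± 0.10, 0.121-fold). MuvB, DREAM and E2F genes had 13 of 19 lower and 2 higher, led by E2f7 (−2.44 ± 0.14).

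G1 cyclins did not follow in those cells. Of the 8 genes 4 were higher and 4 lower. Ccnd2, cyclin D2, had mean values of 655.3 in cKO and 40.61 normalised reads in WT cells (2.62 ± 0.15, 16.1-fold), and Ccnd1, cyclin D1, 7342 in cKO and 2913 in WT cells (1.31 ± 0.19, 2.52-fold). Ccne1, cyclin E1, had 160.4 in cKO and 624.1 in WT cells (−1.42 ± 0.11, 0.257-fold), and Ccne2 differed by −1.40 ± 0.10 (0.279-fold). Among 16 inhibitors 4 were higher and 7 lower. Cdkn2b, the inhibitor p15, had 311 in cKO and 91.13 in WT cells (1.15 ± 0.15, 3.41-fold), while Ccng2, cyclin G2, had 176 in cKO and 1320 in WT cells (−2.24 ± 0.11, 0.133-fold). Cdkn2c (−2.08 ± 0.09, 0.195-fold) and Cdkn2d (−1.28 ± 0.10, 0.324-fold) were lower in cKO cells there, opposite in sign to Ly6Chi BMM cells.

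In Ly6Cint BMM cells (25% of all tested genes higher, 14.7% lower) cKO cells had 25 of 25 DNA replication genes, 17 of 18 outer kinetochore genes, 14 of 15 further kinesins and spindle genes and 7 of 8 G1 cyclins and kinases higher, with none lower in these lists. Mitotic entry control had 11 of 12 higher and 1 lower, MuvB, DREAM and E2F genes 13 of 19 higher and 2 lower, condensin and cohesin genes 10 of 16 higher and 1 lower, and the anaphase promoting complex core 9 of 15 higher and 2 lower. Inhibitors, with 7 of 16 higher and 8 lower, and centriole genes, with 2 of 6 in each direction, were divided. In Ly6Cneg BMM cells (13.6% higher, 9.42% lower) DNA replication genes were higher for 10 of 25 and lower for none, and outer kinetochore genes higher for 7 of 18 and lower for 1. Condensin and cohesin genes were lower there for 6 of 16, centriole genes for 4 of 6, and none of either list was higher. The other 6 lists had calls in both directions.

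After RANKL, in Ly6Cint OC cells (5.94% of all tested genes lower, 8.18% higher), 23 of 25 DNA replication genes, 16 of 18 outer kinetochore genes, 14 of 15 further kinesins and spindle genes, 8 of 12 mitotic entry genes, 10 of 19 MuvB, DREAM and E2F genes and 5 of 6 centriole genes were lower in cKO cells, and none of these was higher. The other 4 lists had calls in both directions. In Ly6Chi OC cells (3.61% lower, 4.25% higher) 13 of 25 DNA replication genes, 7 of 18 outer kinetochore genes and 6 of 15 further kinesins and spindle genes were lower and none was higher. Mitotic entry control had 5 of 12 lower and 1 higher there, and inhibitors 5 of 16 lower and 3 higher.

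Genes outside the members and lists whose levels over the 12 group means were most like the mean of the members were Cdca2 (r = 0.996), Ckap2l (0.995), Shcbp1 (0.994), Spag5 (0.992), Cenpn (0.991), Cdca3 (0.990), Oip5 (0.989) and Gtse1 (0.989). The 99th percentile of 19177 candidate genes was 0.894. Cdca2 ranged between group means of 98.44 and 1553 normalised reads, and Oip5, which overlaps Nusap1 on the opposite strand, between 29.24 and 560.8. Because the use of strand in counting is not given in the sources used here, reads of such pairs cannot be told apart. Of the 38 members, 17 overlap a gene on the opposite strand and 10 one on the same strand.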

How the data were processed

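RNA was sequenced from sorted cells of 12 groups, and 34 of 36 labelled samples had a column. The other 2, both WT Ly6Cneg, were not analysed here. The deposited values are log2-like normalised expression, per the file headers and the values. Build mm10 and the tools HISAT2, DESeq2, deepTools, bcl2fastq 2.17.1 and CASAVA 1.8.4 appear, without roles, in the submitters' processing notes. How reads were counted, on which annotation and with which strand setting is not given in the sources used here. The transform was worked out from the values: 3.896 stands for 0 reads, and 100% of the 1292 member values gave whole reads (within 0.1 reads). Relative depth ranged from 0.573 to 1.416. Above 15.01 the curve was extended with a slope of 0.995, which covers 16.6 to 28.4% of the reads of a library and none of the member reads.

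Deposited values were fitted with limma 3.58.1 (R 4.3.3): 12 group means over 34 libraries left 22 residual degrees of freedom, and the prior on the variance followed a trend and was robust. Genes above 4.78 (the 5th percentile of values over the minimum) in at least 3 libraries were tested, 38873 of 38942. P-values were Benjamini-Hochberg adjusted within each of 25 comparisons and called under 0.05. The code was tested on simulated data. Members, lists and alternatives were chosen with earlier results of these data known. All members may be named, with up to 4 called genes per list and comparison by size of difference and up to 8 genes of most similar pattern. The alternatives were no filter and a stricter filter, median rescaling, quantile normalisation, log2 of recovered reads plus 1, fitting only the libraries compared, no trend or robust prior, library weights, leaving out each library, and voom on the recovered reads, the last chosen after seeing the data.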

Additional observations from a re-analysis of the deposited data

Results flagged for a closer look

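Effects of genotype differed between stages and between Ly6C subsets by tests of the difference itself. For stage, the term was cKO minus WT in OC less cKO minus WT in BMM. Limma called 37 members lower in Ly6Chi cells (11.6% of all tested genes), 37 in Ly6Cint cells (13.1%) and 38 in Ly6Cneg cells (8.71%). In Ly6Chi cells the term was −4.44 for Birc5, −4.33 for Ube2c, −3.59 for Cdk1 and −1.67 for Incenp. Ly6Cint cells had −4.03 for Birc5 and −3.48 for Cdk1. Ly6Cneg cells had −4.41 for Birc5, −4.36 for Ube2c, −3.50 for Cdk1 and −1.18 for Pttg1. Between subsets, the F test called 38 members in BMM cells (20.8% of all tested genes) and 37 in OC cells (13.4%). Genotype moved with the mix of sexes and with the granulocyte, macrophage and osteoclast markers given above, and their part was not tested.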

How the results depend on the processing

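Of 142 named differences, 120 kept their side of the threshold under all alternatives, 22 changed side under at least one, and 0 reversed. Counts of members called were within 1.5 times the main count in 319 of 330 cases that leave out 1 library and in 415 of 432 others. Under median rescaling 2 members were called lower in cKO Ly6Cint than in cKO Ly6Chi BMM cells, and 3 with voom, against 0. Quantile normalisation called 0 members lower in cKO than in WT Ly6Cint BMM cells, and 3 higher and 7 lower in cKO Ly6Cneg than in cKO Ly6Chi BMM cells, where the median turned to 0.02. Library weights called 2 lower at OC than at BMM in WT Ly6Cneg cells, as voom did (2), 1 lower in WT Ly6Cint than in WT Ly6Chi OC cells, and 1 higher for genotype by stage in Ly6Cint cells. Fitting only the libraries compared called 1 lower in cKO than in WT Ly6Cneg BMM cells, 28 lower in cKO than in WT Ly6Chi OC cells (12 to 16 without 1 library, as few as 13 under the others), 16 higher and 5 lower at OC in WT Ly6Cneg cells, 5 lower in cKO Ly6Cneg than in cKO Ly6Chi BMM cells, 2 higher and 1 lower in WT Ly6Cint than in WT Ly6Chi OC cells, and 1 higher for genotype by stage in Ly6Cint cells. The cause was not tested, and shares of all tested genes were not counted under the alternatives. Leaving out 1 library gave 2 to 8 members lower in cKO than in WT Ly6Cneg BMM cells and 0 to 1 in Ly6Cint BMM cells, where the 0 came without cKO replicate 2. It gave 0 to 1 higher at OC in cKO Ly6Chi cells (the 1 without BMM replicate 1) and 5 to 6 higher in WT Ly6Cneg cells. Between cKO BMM subsets it gave 0 to 2 lower in Ly6Cint than in Ly6Chi cells (the 2 without Ly6Chi replicate 3) and 0 to 5 higher in Ly6Cneg than in Ly6Chi cells (the 5 without Ly6Chi replicate 1). Median rescaling shifted a library by at most 0.07 and quantile normalisation by at most 0.47. With a 150-base window, 36.7% of the promoters of members held a CHR element, against 11.2% of all genes. No paired analysis was possible because the labels give each sample a serial number of its own and pair no samples across groups.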
